A study of Drosophila melanogaster with 24 samples.

Results

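Adult flies and larvae of the third instar from the 3 control populations of a selection experiment on oxygen tolerance in Drosophila melanogaster were compared, so that the ordinary difference between the stages could be described gene by gene. Of the 24 arrays of the series, 12 belong to the comparison: 6 of adults and 6 of larvae, chosen by the population and stage that their labels give. Each control population contributed 2 arrays per stage. The control populations came from an intercross of wild-type isogenic lines and were kept in room air. The other 12 arrays hold adults and larvae of 3 SO2A populations, which descend from the same intercross and were selected for and kept in high oxygen. They had no part in the main comparison. They were used to ask whether the stage difference held in other arrays and whether it differed from that of control populations, and in an alternative fit of all 24 arrays. Each adult sample pooled whole flies, 25 males and 25 females, and the larval samples were whole organisms too, with no number or sex of the larvae given in the labels. Adult age and the hour of the larval instar were not given in the sources used here, and a pool of both sexes cannot tell a gene of males from one of females.

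The larva of Drosophila is built to feed and grow. Its midgut digests food, its fat body stores proteins and lipids for metamorphosis, its body wall muscle drives crawling, its salivary glands make the glue that later fixes the pupa, and its imaginal discs hold the cells of the future adult body. At metamorphosis most larval tissue is broken down, and the adult emerges with a new cuticle, compound eyes, antennae, flight muscle and mature gonads. The RNA of a whole animal adds up all of these organs. A lower signal in one stage can therefore mean fewer cells of a type or less RNA per cell, and these cannot be told apart here.

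RNA was read on Affymetrix Drosophila Genome 2.0 arrays, in which a probe set is a group of short probes for one transcript and its signal is the brightness on a linear scale. All arrays had been scaled to a trimmed mean of 2500.1. Median signals lay between 409.6 and 697.4 on adult arrays and between 522.6 and 685.5 on larval arrays. The brightest signal was 121819 to 174345 on adult arrays and 143701 to 187380.0 on larval arrays, and no saturation limit was given. Correlations of log2 signals were 0.92 to 0.952 between adult arrays, 0.929 to 0.944 between larval arrays and 0.774 to 0.803 across stages. Of 35 marker genes of larval and adult organs, 27 had a named probe set, and the markers of larval fat body and salivary gland, of adult eye, antenna, flight muscle and ovary, and of the male accessory gland were all called on the side of their labelled stage. Of the 4 testis markers 2 were called higher in adults, and all 4 overlapped between the stages.

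Of 18769 probe sets, 9261 (49.3%) differed between adults and larvae at an adjusted p under 0.05 (limma, population as a block), and 10139 had an unadjusted p under 0.05. Signals were higher in adults for 5259 probe sets (28%) and lower for 4002 (21.3%). More than 4-fold differences were called for 1068 probe sets higher in adults (5.69%) and for 1333 lower (7.1%). The adult and larval signals of 7118 probe sets (37.9%) did not overlap at all. With 1 probe set per gene, the brightest, 36.1% of 11996 genes were called higher in adults and 25.1% lower, 7.3% were over 4-fold higher and 8.9% over 4-fold lower, and the counts of the gene groups below are to be read against these shares. The median difference over all probe sets was 0.09 on the log2 scale, adult minus larva, and centring each array on its median moved it by 0.107, to 0.197. In SO2A arrays, 2368 of the 2401 probe sets that differed more than 4-fold in control arrays had the same direction, and 2219 were called in that direction. The stage difference itself differed between SO2A and control populations for 217 probe sets (1.16%), upward in 94 and downward in 123. With each array centred on its median these were 15 and 143, and with quantile normalization 55 and 159. The count rested on all of the populations, and lay between 19 and 171 when any 1 of the 6 was left out.

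**Figure D1:**
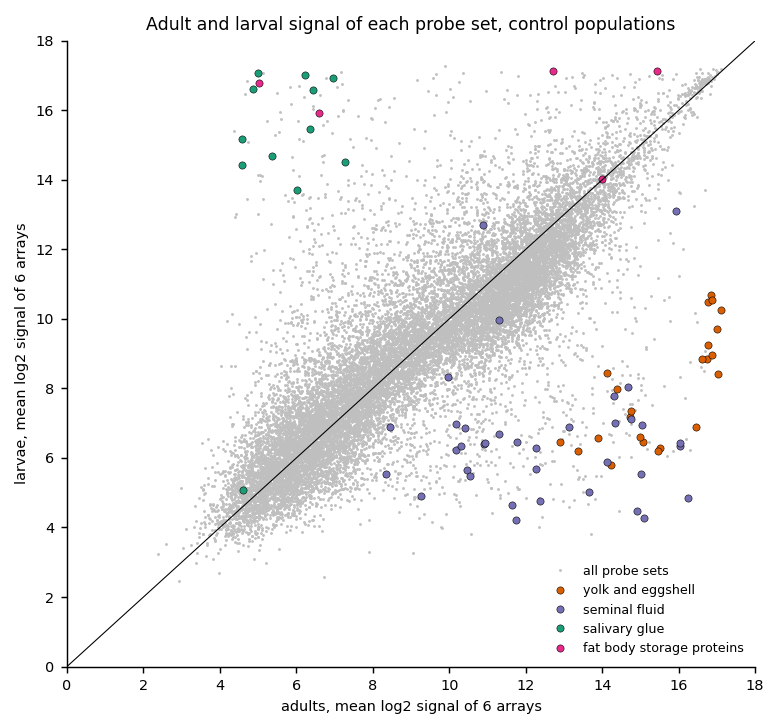
Mean log2 signal of each probe set over the 6 adult arrays (horizontal axis) and the 6 larval arrays (vertical axis), with members of 4 gene groups coloured and a line where both are equal. Yolk and eggshell genes and nearly all seminal fluid genes lie at the bottom right, bright in adults, and the 11 glue genes and 4 fat body storage genes that were called lower in adults lie near the top, bright in larvae, with ng4 and ppl close to the line.

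Signals below are medians with the lowest and highest of the 6 arrays in brackets, and log2 differences are adult minus larva with their standard error. Where all 6 arrays of a stage lay under the 20th percentile of their own array, the stage is called dim and the difference is given as a lower bound on the fold.

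The genes with the greatest gap between the stages, ranked with low signals raised to a common floor, included glue and mucin genes on the larval side and genes of the male tract and the eggshell on the adult side. Among the 15 greatest falls, Sgs3, Sgs7, Sgs4, Sgs5 and Sgs8 encode glue proteins and Muc55B and Muc96D encode mucins. Fbp2, a protein of the larval fat body, was also among them, with a signal of 24.8 (20.9 to 97.3) in adults and 116259 (88517 to 131475) in larvae. The greatest of all was CG34282, at 43.2 (15 to 78.4) in adults and 135812 (127358 to 158943) in larvae (at least 1613-fold lower in adults, adjusted p = 2.29e-08). CG6933, CG31789, CG5084, CG7290, CG33128 and CG14302 completed the falls, and none was under 65312 on any larval array. Among the 15 greatest rises, EbpII and Ebp are proteins of the male ejaculatory bulb, Mst57Da, Acp98AB, Acp53C14b and Sfp24Bb are products of male accessory glands, and Cp16, Cp7Fc, dec and Vm32E build the eggshell. EbpII stood first, at 77413 (58499 to 120961) in adults and 34 (5.9 to 82.3) in larvae (at least 822-fold higher in adults, adjusted p = 9.44e-08). Obp56g, an odorant-binding protein also known from the male tract, had a signal of 37909.6 (19742 to 68455) in adults and 70.7 (37.6 to 176) in larvae. The gene fit, which is expressed in the female fat body, had 53015 (42329 to 68376) in adults and 55.3 (20.9 to 418) in larvae (log2 difference 9.64 ± 0.65, adjusted p = 1.09e-06). CG14645, CG16826 and CG34324 completed the rises, with adult medians of 70719.9, 80744 and 42705 and larval medians of 65.4, 116 and 87.7. Adult and larval signals did not overlap for any of these 30 genes, which the ranking required.

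**Figure D2:**
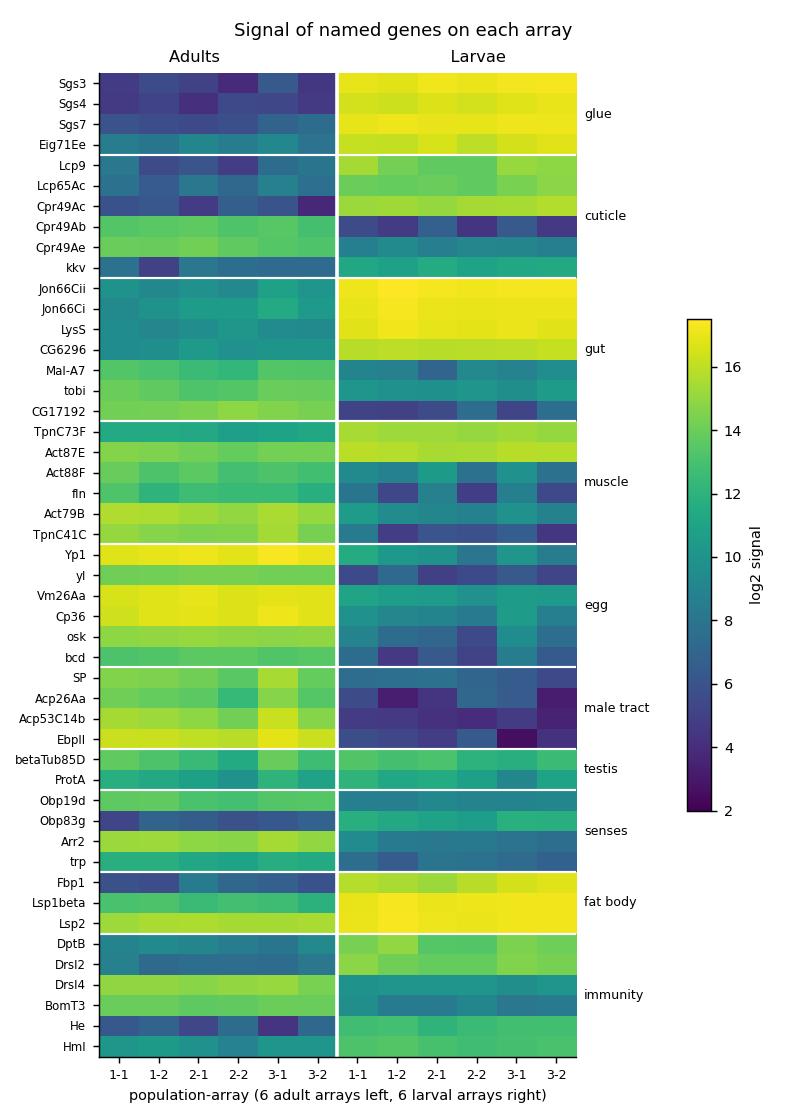
Log2 signals (colour) of 48 named genes on each of the 12 arrays, adults in the left 6 columns and larvae in the right 6, numbered by population and array, with genes grouped by organ. The glue genes Sgs3, Sgs4 and Sgs7 are dark in all adult columns and bright in all larval ones, the egg and male tract genes are the reverse, and the testis genes show no such border.

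Salivary glue genes were bright in larvae alone. Of 12 genes, 11 were lower in adults and all 11 by more than 4-fold, whereas ng4 was dim in both stages. The glue proteins of the Sgs family are secreted by the larval salivary gland at the end of the third instar. Sgs3 had a signal of 29.6 (14.6 to 79.2) in adults and 142207 (114246 to 158483) in larvae (at least 1601-fold lower in adults, adjusted p = 7.87e-09). Sgs4 had 29.9 (17.1 to 42.9) in adults and 98620.2 (82487 to 129386) in larvae (at least 1157-fold lower in adults, adjusted p = 1.25e-09). Sgs7 had 59.4 (42.5 to 182) in adults and 136258 (123115 to 142537) in larvae (log2 difference -10.81 ± 0.25, adjusted p = 2.38e-09). Over all Sgs genes, the highest adult signal was 277 and the lowest larval signal 6567. Eig71Ee, a gland gene induced by ecdysone at the same time as glue, had a signal of 370.5 (237 to 614) in adults and 83189 (64830.2 to 113851) in larvae (log2 difference -7.78 ± 0.26, adjusted p = 1.47e-08), whereas the other 8 measured Eig71E genes, which are transcribed later, at pupariation, did not pass the test and had no median over 134 in either stage, though the count of lower Eig71E genes, Eig71Ee included, was 2 without population 1 and 3 without population 3.

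Cuticle protein genes differed between the stages in both directions. All 7 measured larval cuticle genes (Lcp) were lower in adults. Lcp9 had 124 (27.9 to 289.8) in adults and 24715 (13552 to 43855) in larvae (log2 difference -7.82 ± 0.46, adjusted p = 4.28e-07) and Lcp65Ac had 213 (91.5 to 424) in adults and 16095 (13329.8 to 29229) in larvae (log2 difference -6.43 ± 0.29, adjusted p = 8.86e-08). Larval arrays differed widely for some of them, and Lcp65Ag3 had 121 (79.5 to 664) in adults against a range of 840.2 to 21054 in larvae. The signals of Lcp65Ad, Lcp65Ae and Lcp65Af overlapped between the stages even though each passed the test, with log2 differences of -1.93, -3.56 and -1.91, and those of Lcp65Aa did not overlap (log2 difference -4.49). Without population 2, Lcp65Af no longer passed (adjusted p = 0.195).

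The larger Cpr family of chitin-binding cuticle proteins divided between the stages. Of 74 members, 12 were higher in adults, 32 lower and 30 did not pass the test, and 27 of the falls and 7 of the rises exceeded 4-fold. The median of the list was -0.47 on the log2 scale, against 0.161 for all genes. Cpr49Ac had a signal of 62 (13.4 to 105) in adults and 41972 (34193 to 53815) in larvae (log2 difference -9.82 ± 0.48, adjusted p = 1.23e-07). Its neighbour by name Cpr49Ab went the other way, at 10949.9 (7843 to 13018) in adults and 38 (21.1 to 107) in larvae (log2 difference 7.96 ± 0.44, adjusted p = 2.86e-07), and Cpr49Ae followed it with 14295 (9472 to 18456) in adults and 477 (390.2 to 656) in larvae (log2 difference 4.79 ± 0.19, adjusted p = 3.48e-08). Acp65Aa, named as an adult cuticle protein, had 5967 (3131 to 8004) in adults and 406 (233 to 749.6) in larvae (log2 difference 3.65 ± 0.35, adjusted p = 1.23e-05). Pcp, a pupal cuticle protein, was brighter in larvae, at 469.9 (233 to 508) in adults and 8309 (6787 to 11463) in larvae (log2 difference -4.4 ± 0.24, adjusted p = 2.83e-07). The signals of all of these, and of Cpr49Af and Cpr49Ag, which were lower in adults (-8.39 and -3.78), did not overlap between the stages. Of 24 Tweedle genes, another cuticle protein family, 3 were higher, 4 lower and 17 did not pass. Twdlbeta showed the clearest difference, with 72.8 (39.4 to 96.3) in adults and 1058 (842 to 1353) in larvae (log2 difference -3.97 ± 0.22, adjusted p = 3.07e-07).

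Genes that make, deposit and cut chitin, the polysaccharide of the cuticle, were mostly larval. Of 26, 21 were lower in adults, 14 of them more than 4-fold, and 3 were higher. kkv, the chitin synthase of the epidermis, had a signal of 183 (33.4 to 282) in adults and 2506 (1856 to 3025) in larvae (log2 difference -3.99 ± 0.43, adjusted p = 2.71e-05). The chitinases Cht10 and Cht5, which take part in moulting, had log2 differences of -4.31 and -4.17, and the chitin deacetylases verm and serp had -4.61 and -3.53. The matrix protein obst-A had a signal of 414 (176 to 562) in adults and 15882 (12976 to 24138) in larvae (log2 difference -5.5 ± 0.27, adjusted p = 1.34e-07). Against the rest of the list, the chitinases Cht8, Cht2 and Cht11 were higher in adults, Cht8 with 1530.5 (1375 to 1727) in adults and 337 (189 to 474) in larvae (log2 difference 2.22 ± 0.24, adjusted p = 2.54e-05), whereas Cht11 did not pass without population 1 (adjusted p = 0.0625), after centring each array on its median (adjusted p = 0.0694), with quantile normalization (log2 difference 0.14, adjusted p = 0.452) or with the mean of each population (adjusted p = 0.114). Among 10 tanning genes, stw, a laccase that hardens cuticle, was lower in adults (log2 difference -2.19 ± 0.17, adjusted p = 3.02e-06) and e, which makes the yellow tanning precursor, was higher (log2 difference 1.26 ± 0.35, adjusted p = 0.0125) but did not pass without population 1 (adjusted p = 0.13). Ddc, the decarboxylase of dopamine synthesis, did not pass the test, with 1494 (1182 to 2321) in adults and 1708 (1425 to 2278) in larvae, except when population 3 was left out (log2 difference -0.42, adjusted p = 0.0273).

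**Figure D3:**
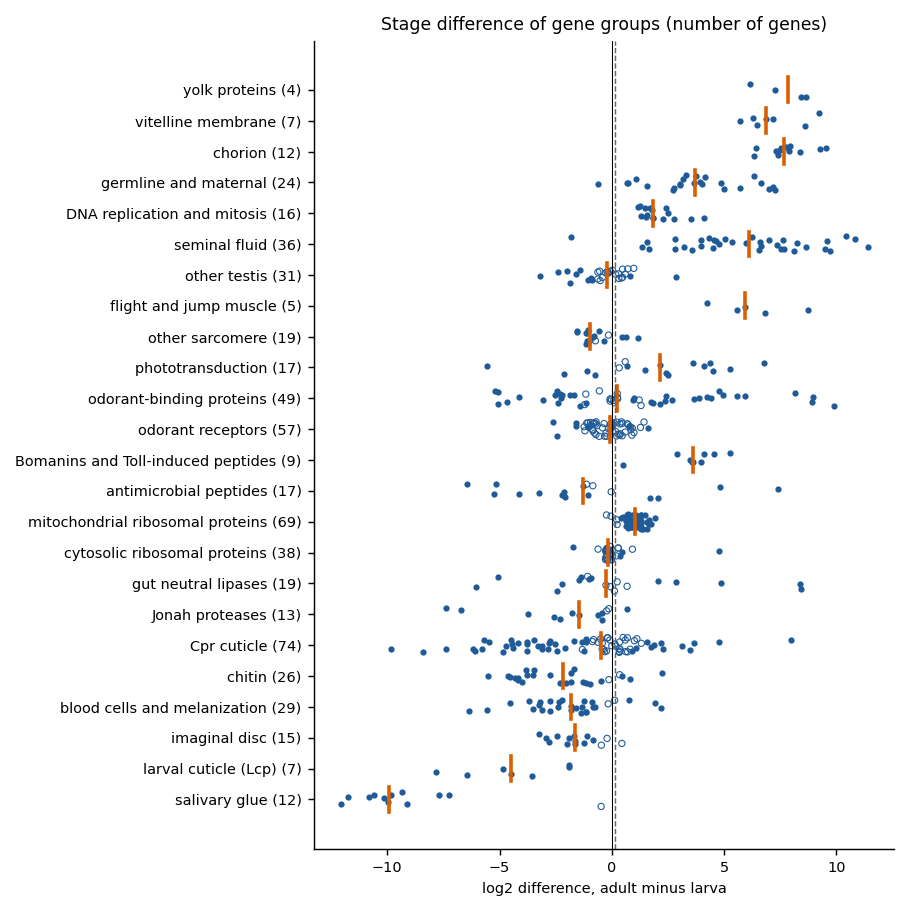
Log2 difference, adult minus larva, of every measured member of 24 gene groups (1 point per gene, brightest probe set, filled where the adjusted p is under 0.05), with a bar at the median of each group and a dashed line at the median of all genes. Yolk, eggshell, seminal fluid and flight muscle genes lie to the right, glue and larval cuticle genes to the left, and Cpr, lipase and odorant-binding genes spread to both sides.

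Proteases of the midgut were in the main brighter in larvae. Of 13 Jonah proteases, serine proteases of the midgut, 10 were lower in adults, 5 of them more than 4-fold, and only Jon25Bi was higher (log2 difference 0.68 ± 0.13, adjusted p = 0.00174). With the mean of each population Jon25Bi did not pass (adjusted p = 0.0528), nor with the first or second arrays alone (adjusted p = 0.0749 and 0.137), and no Jonah gene was then called higher. Jon66Cii had a signal of 962 (613 to 1861) in adults and 157869 (143701 to 187380.0) in larvae (log2 difference -7.4 ± 0.23, adjusted p = 9.78e-09) and Jon66Ci had 1399 (636 to 2834) in adults and 134616 (126499 to 161601) in larvae (log2 difference -6.71 ± 0.27, adjusted p = 4.19e-08). Of 10 trypsins 9 were lower, etaTry for example at 1235 (1037 to 1569) in adults and 16423 (12306 to 17365) in larvae (log2 difference -3.65 ± 0.12, adjusted p = 1.16e-08). The trypsin gene alphaTry did not pass the test, and its signals were among the highest of all in both stages, at 115633 (105766 to 132661) in adults and 120557 (98894 to 135211) in larvae. The bacteria-digesting lysozyme gene LysS had 733 (574 to 1189) in adults and 121400.0 (114726 to 144986) in larvae (log2 difference -7.36 ± 0.16, adjusted p = 2.22e-09), and LysX was also lower (log2 difference -3.16 ± 0.30, adjusted p = 1.09e-05), whereas LysP had 3652 (1978 to 4899) in adults and 2538 (1918 to 3805) in larvae and passed only when population 3 was left out (log2 difference 0.81, adjusted p = 0.00469).

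Enzymes of sugar digestion did not share this direction. Of 12 maltase and related genes, 5 were higher in adults, 4 were lower and 3 did not pass the test, against 36.1% higher and 25.1% lower over all genes. Mal-A7, a maltase, had a signal of 9152 (4918 to 10645) in adults and 490.2 (131 to 766) in larvae (log2 difference 4.22 ± 0.34, adjusted p = 3.72e-06). The alpha-glucosidase gene tobi, a target of insulin signalling, had 14089 (9441 to 16273) in adults and 989 (854 to 1498) in larvae (log2 difference 3.66 ± 0.17, adjusted p = 9.03e-08). Mal-A1 had 27327 (16035 to 33391) in adults and 3509 (2137 to 4914) in larvae (log2 difference 2.9 ± 0.22, adjusted p = 2.69e-06). In contrast, Mal-A3 had 1431 (998 to 2156) in adults and 7748 (4068 to 9409) in larvae (log2 difference -2.26 ± 0.21, adjusted p = 8.26e-06) and Mal-A5 had a log2 difference of -1.87. Both tobi and Mal-A1 were among the probe sets whose stage difference was smaller in SO2A populations. For tobi the log2 difference was 1.71 in SO2A arrays and 3.66 in control arrays (difference -1.95 ± 0.43, adjusted p = 0.0387), and for Mal-A1 it was 1.09 in SO2A arrays and 2.9 in control arrays (difference -1.81 ± 0.38, adjusted p = 0.0287). Without control population 1 or 3 neither passed.

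Lipases of the gut and related tissues held some of the greatest opposite differences of any family. Of 19, 5 were higher in adults and all 5 by more than 4-fold, and 8 were lower, 4 of them by more than 4-fold. CG17192 had 20983 (18835 to 29595) in adults and 42.6 (31.9 to 198) in larvae (log2 difference 8.4 ± 0.47, adjusted p = 2.92e-07). CG17097 had 17683 (5053 to 24123) in adults and 42.2 (9.9 to 133) in larvae (log2 difference 8.36 ± 0.68, adjusted p = 3.81e-06). On the larval side CG6296 had 978 (729 to 1287) in adults and 62185 (57662 to 71964) in larvae (log2 difference -6.03 ± 0.12, adjusted p = 1.3e-09). The gastric lipase mag was lower in adults, with 14044 (12818 to 16007) in adults and 77388 (71033 to 79992) in larvae (log2 difference -2.43 ± 0.10, adjusted p = 4e-08). CG6295 was bright in both stages and did not pass the test, at 43324 (37366 to 51075) in adults and 41573 (24660.0 to 53677) in larvae. Of the 8 Npc2 genes, which encode sterol carriers, 5 were lower in adults and none was higher, and Npc2c had 144 (65.4 to 542) in adults and 15180.0 (11176 to 18286) in larvae (log2 difference -6.38 ± 0.43, adjusted p = 1.1e-06).

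Actin and troponin C genes of muscle differed between stages by isoform. The 5 genes of flight and jump muscle were all higher in adults by more than 4-fold. Act88F, the actin of indirect flight muscle, had a signal of 9269 (7081 to 15581) in adults and 564 (217 to 1374) in larvae (log2 difference 4.26 ± 0.50, adjusted p = 4.66e-05). The thick filament protein of flight muscle encoded by fln had 5524 (3472 to 9499) in adults and 154 (29.6 to 432) in larvae (log2 difference 5.58 ± 0.82, adjusted p = 0.000231). Act79B, the actin of adult leg and jump muscle, had 44127 (31926 to 52416) in adults and 634 (448 to 1506) in larvae (log2 difference 5.92 ± 0.25, adjusted p = 5.22e-08). Both adult troponin C genes followed, TpnC4 with 7797 (4029 to 9496) in adults and 76.2 (14.8 to 202) in larvae (log2 difference 6.83 ± 0.68, adjusted p = 1.58e-05) and TpnC41C with 25367 (20632 to 44252) in adults and 62.3 (21.6 to 339.8) in larvae (log2 difference 8.73 ± 0.62, adjusted p = 1.51e-06). The 2 larval counterparts with a named probe set were lower in adults, and 3 listed genes had none. TpnC73F, the main larval troponin C, had 2506 (1692 to 2898) in adults and 38073 (33708 to 44852) in larvae (log2 difference -4.01 ± 0.14, adjusted p = 1.64e-08) and the larval actin Act87E had 19442 (14877 to 25232) in adults and 55825 (44581 to 60824) in larvae (log2 difference -1.42 ± 0.10, adjusted p = 1.26e-06). Of 19 other sarcomere genes, which serve both kinds of muscle, 14 were lower in adults, 3 were higher and none differed more than 4-fold, from -1.56 for the tropomyosin gene Tm1 to 1.18 for the myosin light chain gene Mlc2. The fall of Act87E lay within that range. Without population 1 or 3, 1 of the 19 was higher.

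Summed over the 5 flight and jump muscle genes, adult arrays carried 68755 to 120692 units of signal, against 755 to 2900 on larval arrays. The first adult arrays of populations 1, 2 and 3 had 120692, 91262 and 115246 units, and the second adult arrays had 95163, 75766 and 68755. Larval arrays were ordered in the same way, with 2900, 2569 and 2536 units on the first arrays and 1274, 771 and 755 on the second. What the array number stands for was not given in the sources used here, and its part in the result was not tested. Taken alone, the first arrays and the second arrays both gave 5 of 5 genes higher in adults.

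**Figure D4:**
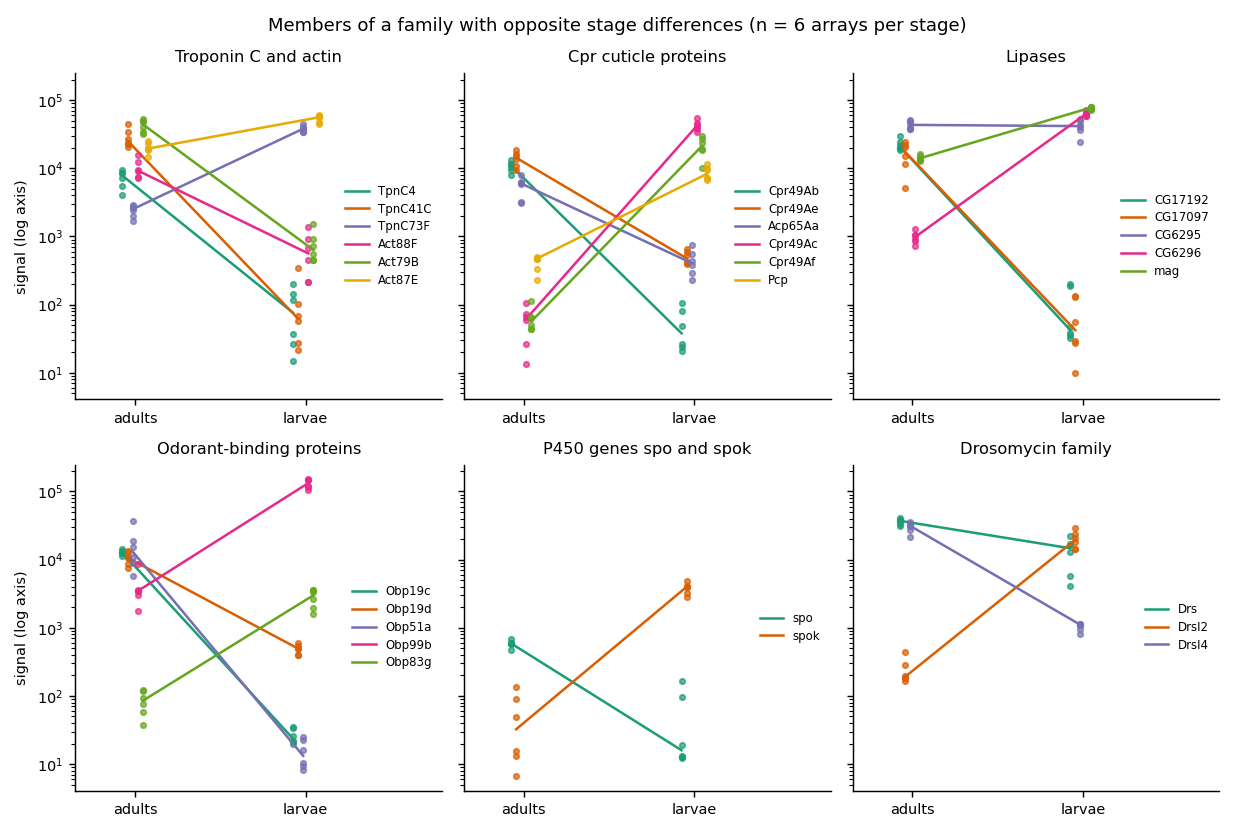
Signals on a log axis for members of 6 gene families in adults (left) and larvae (right), with 1 point per array, 6 per stage, and a line joining the medians of each gene. Each family holds members whose line falls from adults to larvae and members whose line climbs, and the lipase CG6295 runs level.

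Genes of egg production were higher in adults. All 4 yolk genes, all 7 vitelline membrane genes and all 12 chorion genes with a named probe set were higher in adults, every one by more than 4-fold. Of the listed genes, 4 vitelline membrane genes and 1 chorion gene had no named probe set. Yp1, a yolk protein made by the female fat body and ovary, had a signal of 131322 (107891 to 164732) in adults and 1008 (269.6 to 2971) in larvae (log2 difference 7.28 ± 0.49, adjusted p = 1.03e-06). Its relative Yp3 had 116247 (98422 to 148433) in adults and 1926 (439 to 5119) in larvae (log2 difference 6.16 ± 0.43, adjusted p = 1.28e-06). yl, the oocyte receptor that takes up yolk, had 19027 (17692 to 20596) in adults and 44.2 (30.8 to 158) in larvae (log2 difference 8.44 ± 0.36, adjusted p = 5.83e-08). Vm26Aa, a protein of the inner eggshell, had 110864 (98018 to 124491) in adults and 1435 (916 to 2112) in larvae (log2 difference 6.28 ± 0.18, adjusted p = 6.88e-09). Cp36, of the outer eggshell, had 111932 (85710.0 to 140057) in adults and 547 (334 to 1428) in larvae (log2 difference 7.5 ± 0.32, adjusted p = 6.54e-08). None of these adult and larval signals overlapped.

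Low signals of the same genes on larval arrays were uneven. Yp2 had 133701 (111911 to 169445) in adults, against larval signals of 3619.7, 1210.0, 910.0, 23, 991, 16.5 on arrays 1 and 2 of populations 1, 2 and 3 in turn. Summed over the 12 chorion genes, adult arrays held 632926 to 951427 units, and the larval arrays held 8354, 4514, 4465, 1965, 19102 and 2810 in the same order. As with flight muscle, the first larval array of each population was above the second. The source of these low larval signals was not tested.

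Genes of the germline and maternal list, counted with the ovary, were nearly all higher in adults. Of 24, 23 were higher in adults by the brightest probe set, 19 of them more than 4-fold. By that measure tud alone was lower, with 4373 (2471 to 4906) in adults and 6207 (5012 to 7385) in larvae (log2 difference -0.64 ± 0.18, adjusted p = 0.0136), a call that was lost without population 3 (adjusted p = 0.0626). Counting every probe set, 2 of the 24 genes had one that was called lower in adults. The posterior determinant osk had a signal of 31287 (29205 to 34759.5) in adults and 186 (43.7 to 739.6) in larvae (log2 difference 7.26 ± 0.53, adjusted p = 1.74e-06). The anterior determinant bcd had 10805 (9336 to 12606) in adults and 82.4 (23.4 to 376) in larvae (log2 difference 7.0 ± 0.59, adjusted p = 4.65e-06). Genes of the piRNA pathway, which silences transposons in the germline, were also higher in adults. AGO3 had 6165 (5785 to 7400.5) in adults and 249.5 (109 to 314) in larvae (log2 difference 4.85 ± 0.26, adjusted p = 2.34e-07), piwi had 6091 (5090.4 to 6890.1) in adults and 349 (260.2 to 467) in larvae (log2 difference 4.16 ± 0.17, adjusted p = 4.56e-08) and aub had a log2 difference of 3.17. The DNA replication list followed the same direction, with 16 of 16 genes higher in adults and 6 of them more than 4-fold. The cyclin gene CycB had a signal of 71876 (60377 to 77724) in adults and 4156 (3079 to 5356) in larvae (log2 difference 4.1 ± 0.11, adjusted p = 6.59e-09). Orc1, of the origin recognition complex, had 8224 (7161 to 10395) in adults and 712 (654 to 831) in larvae (log2 difference 3.52 ± 0.12, adjusted p = 1.78e-08). PCNA, the sliding clamp of DNA polymerase, had 26472 (23473 to 29830.2) in adults and 9429.6 (7579 to 11506) in larvae (log2 difference 1.47 ± 0.12, adjusted p = 3.58e-06).

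Testis genes gave a different picture from the ovary, with few calls in control arrays. Of 31 genes, 2 were higher in adults, 9 were lower and 20 did not pass the test, and among 16 protamine and Mst genes 5 were higher, against 2 when population 1 or 3 was left out, and 11 did not pass. Over all genes, 36.1% were called higher and 25.1% lower. The testis tubulin gene betaTub85D had 7862 (2896 to 15566) in adults and 6856 (3441 to 10209) in larvae (log2 difference 0.31 ± 0.39, adjusted p = 0.556). ProtA, a sperm chromatin protein, had 2286 (941 to 4397) in adults and 2268 (559.9 to 4391) in larvae (log2 difference 0.17 ± 0.48, adjusted p = 0.807). In SO2A arrays both genes were called higher in adults, betaTub85D by 1.11 (adjusted p = 0.00134) and ProtA by 0.92 (adjusted p = 0.0371). Of the 31 and 16 genes, 24 and 11 had the same direction in SO2A arrays as in control arrays. No gene of either list had a called difference between SO2A and control populations. The 9 genes that were lower in adults included comr, aly, can, mia, sa and nht, which act in spermatocytes to switch on the genes of sperm formation. Neither topi nor tomb, of the same programme, passed the test (log2 difference -0.2, adjusted p = 0.674, and -0.63, adjusted p = 0.138). Of the lower genes, comr had 34 (8.3 to 100.5) in adults and 246 (199.6 to 462) in larvae (at least 3.17-fold lower in adults, adjusted p = 0.000631) and mia had 570.0 (345 to 756) in adults and 2077 (1574 to 2422) in larvae (log2 difference -1.87 ± 0.20, adjusted p = 2.17e-05). The count of 9 fell to 5 without population 1 and to 3 without population 2, with aly, can, sa and nht among those lost. The meiotic phosphatase gene twe was higher in adults, with 3289.8 (1939 to 3978) in adults and 411 (272 to 652) in larvae (log2 difference 2.86 ± 0.26, adjusted p = 7.44e-06). Its lowest adult signal was on the first array of population 3, where the summed testis signal was highest, at 100135 units. Which organ the twe signal came from was not tested. Mst57Da and Mst57Dc, counted with the Mst genes by name, are accessory gland peptides and were the 2 members over 4-fold higher.

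**Figure D5:**
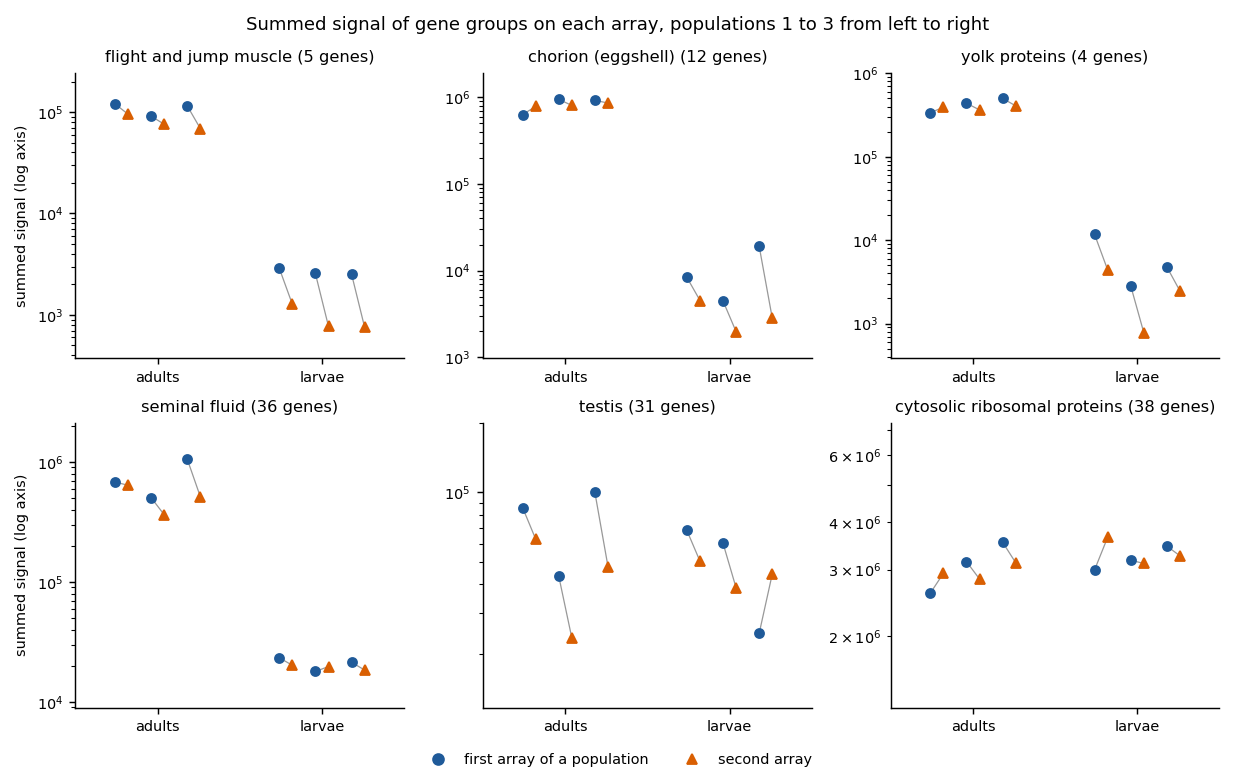
Signal summed over the members of 6 gene groups on each array (log axis), adults left and larvae right, with the first and second arrays of each population drawn as different symbols. The seminal fluid and eggshell sums of adults lie above all those of larvae, whereas the testis sums of the stages overlap.

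Seminal fluid genes, made in the male accessory gland, ejaculatory duct and bulb, were adult. Of 36 with a named probe set, 35 were higher in adults and 32 of these by more than 4-fold, and 27 listed genes had no named probe set. SP, the sex peptide that changes the behaviour of mated females, had 19967 (11907 to 44617) in adults and 159 (43.2 to 228) in larvae (log2 difference 7.33 ± 0.44, adjusted p = 4.88e-07). Acp26Aa, which stimulates egg laying, had 13424 (5269 to 25919) in adults and 34.3 (9.2 to 141) in larvae (log2 difference 8.66 ± 0.78, adjusted p = 7.52e-06). Acp36DE, which acts in sperm storage, had 26784 (12223 to 46842) in adults and 237 (86.7 to 726) in larvae (log2 difference 6.63 ± 0.41, adjusted p = 6.06e-07). Acp53C14b was dim in larvae, at 34426 (18516 to 73955) in adults and 20.9 (11.6 to 26.4) in larvae (at least 370.4-fold higher in adults, adjusted p = 6.96e-09). The exception was hdly, with 1905 (1712 to 2055) in adults and 6543 (5823 to 7489) in larvae (log2 difference -1.82 ± 0.10, adjusted p = 2.74e-07). Anp, an antimicrobial peptide of the ejaculatory duct, had 22849.6 (10385 to 55762) in adults and 134 (78.3 to 247) in larvae (log2 difference 7.38 ± 0.40, adjusted p = 2.56e-07).

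Male genes were uneven across the adult arrays. Sums over the 36 seminal fluid genes were 682687, 638902, 505002, 363434, 1058423 and 513385 units on arrays 1 and 2 of populations 1, 2 and 3 in turn. The sums over the 31 testis genes, in the same order, were 86051, 62729, 43417, 23362, 100135 and 47677 units. Both were highest on the first array of population 3 and lowest on the second array of population 2. This order was not particular to male genes. The same arrays held the highest and lowest adult sums of phototransduction genes (114323 and 71864 units) and of lipid storage and transport genes (304785 and 257667). They also had the highest and lowest adult median signals, 697.4 and 409.6. The chorion sums were 632926, 787931, 951427, 807618, 924810 and 861792 units and had their lowest value on the first array of population 1. The labels give the same number of males and females for each pool, and what set the male signal of an array was not tested.

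Odorant-binding protein genes showed strong differences in both directions, and genes of sensory receptors showed few. RNA of whole animals does not show which organ such a signal came from. Of 49 odorant-binding proteins, small carriers of odours and other ligands, 20 were higher in adults, 16 of them more than 4-fold, and 16 were lower, 12 of them more than 4-fold. Over all genes, 36.1% were called higher and 25.1% lower. Summed over the 49, signals were 204734 to 357545 units in adults and 323106 to 415557 in larvae. Obp19d, an abundant carrier of adult sense organs, had 10669 (7462 to 13238) in adults and 495 (392 to 606) in larvae (log2 difference 4.42 ± 0.18, adjusted p = 4.56e-08). The carrier lush, needed to detect a male pheromone in the antenna, had 598 (457 to 625) in adults and 46.8 (27.9 to 63.7) in larvae (at least 6.01-fold higher in adults, adjusted p = 5.39e-08). Obp83a, also of the antenna, had 2805 (1881 to 3210.2) in adults and 361 (332 to 628) in larvae (log2 difference 2.68 ± 0.21, adjusted p = 3.16e-06). Obp19c was at 12620.3 (11096 to 14449) in adults and 23.6 (19.9 to 34.5) in larvae (at least 135-fold higher in adults, adjusted p = 9.48e-10), and Obp51a at 13097 (5806 to 36607) in adults and 13.2 (8.3 to 25.3) in larvae (at least 142-fold higher in adults, adjusted p = 6.34e-08). On the larval side, Obp99b had 3453 (1766 to 8555) in adults and 132558 (106584 to 150198) in larvae (log2 difference -5.19 ± 0.33, adjusted p = 6.82e-07) and Obp83g had 85 (37.3 to 121) in adults and 2997 (1581 to 3592) in larvae (log2 difference -5.09 ± 0.31, adjusted p = 5.45e-07). The brightest carriers in adults other than Obp56g were Obp56d and Obp44a, and both were still lower than in larvae, with log2 differences of -1.17 and -1.43.

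Receptors gave few calls. Of 57 odorant receptors 2 were higher and 5 lower, of 56 gustatory receptors 1 was higher and 5 lower, and of 53 ionotropic receptors 2 were higher and 2 lower, against 36.1% and 25.1% of all genes. With any 1 population left out, each of these counts lay between 0 and 6. Their signals were low, and sums over the 57 odorant receptors were 5293 to 8950 units in adults and 6716 to 7471 in larvae, with 5 genes dim in adults alone, 3 dim in larvae alone and 3 dim in both stages. Orco, the coreceptor of the odorant receptors, had 385 (315 to 468) in adults and 288 (199.8 to 378) in larvae and did not pass the test (adjusted p = 0.0602) except when population 2 was left out (adjusted p = 0.0478). Ir7c was at 560.1 (400.4 to 650.5) in adults and 36.6 (16.9 to 82.6) in larvae (at least 5.76-fold higher in adults, adjusted p = 7.67e-06). Ir31a was at 145 (43 to 249) in adults and 25.9 (12.3 to 34.7) in larvae (at least 1.27-fold higher in adults, adjusted p = 0.00266) and did not pass with the floor at the 20th percentile (log2 difference 0.68, adjusted p = 0.135) or with the first arrays alone (adjusted p = 0.0736). Or67d had 23.5 (7.6 to 34.8) in adults and 128 (66.6 to 204) in larvae (at least 1.46-fold lower in adults, adjusted p = 0.000294), and its stage difference was not the same in the selected populations, at 1.02 in SO2A arrays and -2.64 in control arrays (difference 3.67 ± 0.80, adjusted p = 0.0347). That difference did not pass with the higher floor (adjusted p = 0.141) or without any 1 control population. For most receptors a difference was not detectable at these signals.

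Genes of the photoreceptor followed the compound eye of the adult. Of 17 phototransduction genes, 11 were higher in adults, 9 of them more than 4-fold. Arr2, an arrestin that ends the light response, had 34903 (26992 to 44389) in adults and 305 (191 to 709) in larvae (log2 difference 6.77 ± 0.25, adjusted p = 2.74e-08). Its partner Arr1 had 30315 (22916 to 38788) in adults and 1254 (1208 to 1413) in larvae (log2 difference 4.49 ± 0.14, adjusted p = 9.48e-09). The light-gated channels encoded by trp and trpl had 3056 (1994 to 3449) in adults and 184 (92.5 to 247) in larvae (log2 difference 4.11 ± 0.28, adjusted p = 1.08e-06) and 4511 (2735 to 5100.4) in adults and 406 (145 to 488) in larvae (log2 difference 3.59 ± 0.29, adjusted p = 3.65e-06). The scaffold protein encoded by inaD had 1352 (672 to 1588) in adults and 27.6 (21.7 to 59.1) in larvae (at least 12.2-fold higher in adults, adjusted p = 1.16e-07). The 4 members that were lower were ninaD and santa-maria, scavenger receptors for carotenoid uptake, pinta, a retinoid carrier, and Galphaq, a G protein of many tissues. With the mean of each population santa-maria did not pass (adjusted p = 0.0944), nor with the first or second arrays alone (adjusted p = 0.171 and 0.113). ninaD, which acts in the gut, had 229.6 (46.2 to 630.2) in adults and 10721 (6619 to 14210.1) in larvae (log2 difference -5.58 ± 0.46, adjusted p = 3.94e-06). Among 13 genes of eye structure and pigment, 8 were higher, retinin of the corneal lens with 9310.5 (7548 to 10567) in adults and 224 (28.2 to 399.6) in larvae (log2 difference 5.75 ± 0.51, adjusted p = 6.73e-06) and chp of the photoreceptor membrane with 3184 (1392 to 4049.6) in adults and 383 (267 to 479) in larvae (log2 difference 2.95 ± 0.23, adjusted p = 2.93e-06), and gl was lower (log2 difference -1.03 ± 0.29, adjusted p = 0.0136) but did not pass without population 2 (adjusted p = 0.131).

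General neuronal genes differed less. Of 20 synaptic and neuronal genes, 4 were higher in adults, 3 were lower and 13 did not pass the test, and 2 were higher when population 1 or 3 was left out. Dscam1, a surface protein of growing axons, was the only one past 4-fold, with 339.6 (239 to 427) in adults and 1477 (1209 to 1837) in larvae (log2 difference -2.19 ± 0.16, adjusted p = 1.46e-06). The synaptic protein gene cpx had 5005 (3736 to 8005) in adults and 1568 (1414 to 1709) in larvae (log2 difference 1.75 ± 0.18, adjusted p = 2.01e-05). The neuron marker elav was lower, with 771 (714 to 1017) in adults and 1578 (739.8 to 2148) in larvae (log2 difference -0.87 ± 0.26, adjusted p = 0.0166), and its signals overlapped between the stages. Without population 2 or 3 it did not pass (adjusted p = 0.123 and 0.129).

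Storage proteins of the fat body were larval. Of 5 storage genes, 4 were lower in adults. Fbp1, the receptor through which the larval fat body takes back serum proteins, had 84.7 (51 to 319.9) in adults and 57944 (36914 to 107567) in larvae (log2 difference -9.33 ± 0.43, adjusted p = 9.28e-08). Lsp1beta, a hexamerin of larval blood, had 6971 (3929 to 9068) in adults and 144457 (129467 to 162280.3) in larvae (log2 difference -4.42 ± 0.18, adjusted p = 4.06e-08). Lsp2, another hexamerin, kept a high signal in adults, at 44921 (39035 to 49174) in adults and 144189 (133060.1 to 165628) in larvae (log2 difference -1.7 ± 0.10, adjusted p = 5.85e-07). The mitochondrial enzyme gene ppl had 16287 (15256 to 17194) in adults and 17162 (12655 to 20279.5) in larvae and did not pass the test. For Lsp1beta the stage difference was larger in SO2A populations, at -6.58 in SO2A arrays and -4.42 in control arrays (difference -2.15 ± 0.40, adjusted p = 0.0165), and did not pass when any control population was left out (adjusted p = 0.0514 to 0.0896).

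Of 16 genes of lipid storage and transport, 5 were higher in adults, 9 were lower and 2 did not pass. The count of lower genes was 5 without population 1 and 3 after centring each array on its median. The falls were small, with no log2 difference beyond -1.79, the value of AkhR, the receptor of the fat-mobilizing hormone. AkhR had 1571 (1459.9 to 2026) in adults and 5540.3 (4447 to 6589) in larvae (log2 difference -1.79 ± 0.13, adjusted p = 2.07e-06). Lsd-1, a coat protein of lipid droplets, had 10642 (8206 to 12937) in adults and 36221 (31892 to 44838) in larvae (log2 difference -1.78 ± 0.12, adjusted p = 1.39e-06). The lipoprotein apolpp, which carries lipids in the blood, was bright in both stages, at 75869.8 (70306 to 90888) in adults and 103234 (88490.0 to 115049) in larvae (log2 difference -0.41 ± 0.10, adjusted p = 0.00721). That call was lost after centring each array on its median (log2 difference -0.30, adjusted p = 0.242), with quantile normalization (-0.04, adjusted p = 0.701) and with the mean of each population (adjusted p = 0.118). Rises were larger. FASN2, a fatty acid synthase, had 2911 (2137 to 3505) in adults and 435 (195 to 512) in larvae (log2 difference 2.83 ± 0.22, adjusted p = 2.41e-06). NLaz, a lipocalin, had 8434 (8027 to 11502) in adults and 1857 (1395 to 2119) in larvae (log2 difference 2.35 ± 0.13, adjusted p = 3.58e-07). ACC, which makes the substrate of fatty acid synthesis, had 22222 (15799 to 25135) in adults and 6047 (5329.9 to 6644) in larvae (log2 difference 1.85 ± 0.12, adjusted p = 6.62e-07). The fatty acid synthase gene FASN1 did not pass the test, with 51982 (35266 to 57517) in adults and 53595 (47205 to 70240.4) in larvae.

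Immune genes differed by class, and antimicrobial peptide genes were called in both directions. Of 17, 10 were lower in adults and 4 higher, among them Anp of the ejaculatory duct, given above. Drsl2, a drosomycin-like peptide, had 189 (164 to 435) in adults and 19485 (14436 to 28602) in larvae (log2 difference -6.43 ± 0.25, adjusted p = 3.23e-08), whereas Drsl4 had 31446 (21196 to 35847) in adults and 1104 (809 to 1150.2) in larvae (log2 difference 4.83 ± 0.15, adjusted p = 1.13e-08). Drs, the antifungal peptide drosomycin, had 37079.5 (30794 to 40074) in adults and 14661 (4053 to 22326) in larvae (log2 difference 1.7 ± 0.39, adjusted p = 0.00439). Def, which encodes defensin, had 3052 (2667 to 4312) in adults and 678 (455 to 1630.1) in larvae (log2 difference 2.06 ± 0.29, adjusted p = 0.00018). DptB, an antibacterial diptericin, had 511 (260.3 to 673) in adults and 19083 (10265 to 32979) in larvae (log2 difference -5.23 ± 0.28, adjusted p = 2.44e-07). The attacin gene AttD had 243 (120.1 to 527) in adults and 4023 (3269 to 5683) in larvae (log2 difference -4.14 ± 0.29, adjusted p = 1.43e-06). Mtk, which encodes metchnikowin, had 948 (538 to 3659) in adults and 9248 (5889 to 24562) in larvae (log2 difference -3.23 ± 0.22, adjusted p = 1.13e-06). Larvae were uneven here, and AttC, another attacin gene, had 1902, 1709.7, 1309, 749, 1269, 1161 in adults on arrays 1 and 2 of populations 1, 2 and 3 in turn, against 12712, 20108, 1466, 1848, 5376, 6775 in larvae in that order.

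The stage difference of some of these peptides was not the same in the selected populations. Of the 17 genes, 9 had the same direction in SO2A arrays as in control arrays, and 2 had a called difference between the populations. For DptB the log2 stage difference was 0.82 in SO2A arrays and -5.23 in control arrays (difference 6.05 ± 1.37, adjusted p = 0.0404), and for Mtk it was 1.93 in SO2A arrays and -3.23 in control arrays (difference 5.16 ± 1.19, adjusted p = 0.0417). Neither difference passed after centring each array on its median (adjusted p = 0.0622 and 0.0664) or when any control population was left out. The list of Bomanins, short peptides induced by the Toll pathway, and other Toll-induced peptides had 9 genes with a named probe set and 16 without. All 9 were called higher in adults, 8 of them over 4-fold, with no called difference between SO2A and control populations. BomT3 had 15748 (13157 to 16868) in adults and 324 (280.2 to 795) in larvae (log2 difference 5.24 ± 0.26, adjusted p = 1.27e-07), BomS2 had 17671 (13654 to 21224) in adults and 1700.5 (461 to 5270.2) in larvae (log2 difference 3.62 ± 0.54, adjusted p = 0.000254) and BomBc3 had 6012 (2968 to 8089) in adults and 468 (370.0 to 668) in larvae (log2 difference 3.55 ± 0.18, adjusted p = 1.57e-07). IM33 was the smallest rise, with 68185 (60494 to 91952) in adults and 52704 (30821 to 62676) in larvae (log2 difference 0.51 ± 0.17, adjusted p = 0.0315), and did not pass without population 2 or 3 (adjusted p = 0.19 and 0.12). Of the 9 genes, 8 were also higher in adults than in larvae by mean in SO2A arrays, and the stage difference of IM33 was -0.09 in SO2A arrays and 0.51 in control arrays (difference -0.59 ± 0.27, adjusted p = 0.307). Of 6 Turandot stress peptides, TotC was higher in adults (log2 difference 3.5 ± 0.42, adjusted p = 5.82e-05) and TotA lower (log2 difference -1.57 ± 0.28, adjusted p = 0.000894), and 4 did not pass.

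Blood cell genes were larval. Of 29 genes of blood cells and melanization, 24 were lower in adults, 13 of them more than 4-fold, and 3 were higher. He, a surface protein of blood cells, had 99 (21 to 180.1) in adults and 7009.9 (4321 to 7442) in larvae (log2 difference -6.37 ± 0.53, adjusted p = 4.31e-06). PPO1, a phenoloxidase of crystal cells that makes melanin, had 1379.5 (1039.9 to 1997) in adults and 17650.5 (9408 to 22937) in larvae (log2 difference -3.5 ± 0.21, adjusted p = 5.4e-07). PPO2 had 1759 (1483 to 2422) in adults and 17767 (10568 to 22441) in larvae (log2 difference -3.24 ± 0.16, adjusted p = 1.65e-07). Hml, a clotting factor of plasmatocytes, had 1121 (478 to 1384) in adults and 8242 (7011 to 10386) in larvae (log2 difference -3.1 ± 0.18, adjusted p = 4.49e-07). eater, a receptor for bacteria, had 265 (184 to 453) in adults and 2475 (2276 to 2778) in larvae (log2 difference -3.18 ± 0.14, adjusted p = 8.71e-08). The 3 that were higher in adults were srp, a GATA factor of blood and fat body (log2 difference 0.74 ± 0.12, adjusted p = 0.000523), NimC4, a receptor for dying cells (at least 1.51-fold higher in adults, adjusted p = 0.000137), and PPO3 (log2 difference 1.91 ± 0.56, adjusted p = 0.0165), which did not pass without population 1 or 2 (adjusted p = 0.0509 and 0.136). Among 16 recognition and signalling genes, 8 were lower and 4 higher. PGRP-SC2, an enzyme that degrades bacterial peptidoglycan, had 23837 (18406 to 25687) in adults and 83819.9 (77078 to 109624) in larvae (log2 difference -1.94 ± 0.13, adjusted p = 1.1e-06). Tl, the Toll receptor, had 19308 (14343 to 21443) in adults and 4262 (3849 to 4459) in larvae (log2 difference 2.15 ± 0.11, adjusted p = 2.01e-07).

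Hormone genes were called in both directions. Of 29 genes of ecdysone and juvenile hormone, 15 were lower in adults and 8 were higher. The pair of related P450 genes spok and spo, which act at the same step of ecdysone synthesis, were opposite. The larval gland gene spok had 32.4 (6.7 to 135) in adults and 3982 (2836 to 4837) in larvae (log2 difference -6.95 ± 0.75, adjusted p = 2.69e-05). spo, known from the ovary, had 590.0 (477 to 673) in adults and 15.9 (12.1 to 164) in larvae (log2 difference 4.32 ± 0.54, adjusted p = 7.54e-05). The zinc finger gene br, which commits tissues to the pupal state, had 216 (139 to 387) in adults and 14828 (11295 to 22058) in larvae (log2 difference -6.09 ± 0.30, adjusted p = 1.46e-07). Eip93F, a factor of adult development, had 1188 (879 to 1592) in adults and 40.4 (5.4 to 135) in larvae (log2 difference 5.38 ± 0.68, adjusted p = 8.43e-05). The receptor kinase gene tor, which serves the prothoracic gland and the egg, had 4305 (3415 to 4908) in adults and 54.8 (31.4 to 226) in larvae (log2 difference 6.02 ± 0.36, adjusted p = 5.16e-07). Among 4 insulin-like peptide genes, Ilp8 had 2895 (2600.1 to 3452) in adults and 192 (63.9 to 334) in larvae (log2 difference 4.13 ± 0.40, adjusted p = 1.32e-05), Ilp7 had 294 (189 to 404) in adults and 58.9 (22.8 to 222) in larvae (log2 difference 2.26 ± 0.56, adjusted p = 0.00656), Ilp2 had 628 (465 to 925) in adults and 1012 (716 to 1103) in larvae (log2 difference -0.59 ± 0.15, adjusted p = 0.00945), and Ilp5 did not pass, with 666 (548 to 919) in adults and 580.5 (466 to 775) in larvae. Neither Ilp7 nor Ilp2 passed without population 2 (adjusted p = 0.0551 and 0.051), and Ilp2 did not pass without population 1 (adjusted p = 0.0786).

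Genes that pattern the imaginal discs were brighter in larvae. Of 15 patterning genes of the discs, 12 were lower in adults and none was higher. The homeobox gene inv had 22.2 (16.3 to 101) in adults and 324 (248 to 388) in larvae (log2 difference -3.23 ± 0.49, adjusted p = 0.000305). The signal protein gene hh had 132 (104 to 336) in adults and 1157 (819 to 1723) in larvae (log2 difference -2.94 ± 0.30, adjusted p = 2.02e-05). nub, of the wing and leg, had 480.3 (365 to 625) in adults and 3160.4 (2992 to 3928) in larvae (log2 difference -2.79 ± 0.14, adjusted p = 1.78e-07). Of 8 Malpighian tubule genes, 5 were lower and 2 higher. Vha100-4, a subunit of the proton pump, had 1156 (1051 to 1717) in adults and 5863 (3782 to 7867) in larvae (log2 difference -2.21 ± 0.20, adjusted p = 6.79e-06). ZnT35C, a zinc transporter, had 6000.5 (5177 to 6499) in adults and 1791 (1553 to 2296) in larvae (log2 difference 1.66 ± 0.13, adjusted p = 2.41e-06).

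Of 38 cytosolic ribosomal protein genes with a named probe set (52 had none), 34 did not pass the test, 3 were higher in adults and 1 was lower. These counts depended on the setting, at 11 higher and 2 lower with quantile normalization, 4 higher and 10 lower with the floor at the 20th percentile, and 4 higher and 12 lower with a prior variance that follows the signal, an alternative chosen after seeing the data. After centring each array on its median 2 were higher and 1 was lower. Their summed signal was 2599237 to 3545310 units in adults and 2993670 to 3650947 in larvae. Of the 3 genes called higher in the main comparison, 1 was over 4-fold higher, and the highest log2 difference of the list was 4.77. The gene that was lower was RpL22-like, a paralog known from the testis, with 478 (277 to 612) in adults and 1652 (806 to 1816) in larvae (log2 difference -1.72 ± 0.25, adjusted p = 0.000224). Of 69 mitochondrial ribosomal protein genes, 65 were higher in adults, none was lower and none differed more than 4-fold, with a list median of 1.01 on the log2 scale. The respiratory chain and ATP synthase list of 69 genes had a median of 0.05 and a highest log2 difference of 7.29. It had 14 genes higher, 3 of them more than 4-fold, and 10 lower. These counts moved with the scaling, to 34 and 4 with quantile normalization and to 11 and 2 after centring each array on its median, and to 8 and 0 without population 1, 9 and 4 without population 2 and 11 and 6 without population 3.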

How the data were processed

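Whole-animal RNA of 24 samples was hybridized to Affymetrix Drosophila Genome 2.0 arrays, 6 each of adult and larval control populations and of adult and larval SO2A populations, and groups were taken from the labels. The authors deposited 1 linear intensity per probe set and array. MBEI and RMA are both named in their methods for background subtraction and normalization. Whether the deposited intensities came from either is not said there. Scaling to a common trimmed mean (2% left out at each end) was found in the values themselves.

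Of 18952 probe sets, 183 array controls were left out. Signals were floored at 1 and log2-transformed. Names came from the platform annotation, updated through RefSeq symbols. For 15 probe sets without a name there, the symbol came from the authors' supplementary list of altered genes. This gave a single symbol for 13661 probe sets, several symbols for 402, and none for 4706. A gene was represented by its brightest probe set over the control arrays. Gene lists were counted over the members with a named probe set.

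Stages were compared with limma (version 3.58.1, statmod 1.5.0, R 4.3.3), with population as a fixed block and with the pair of arrays from each population at a stage as a random block (correlation 0.0284). P-values were adjusted by the Benjamini-Hochberg method over 18769 probe sets, and an adjusted p under 0.05 was called. The pairing comes from the labels, which give the same populations for both stages, and deviations of adults and larvae of a population correlated at 0.102, -0.0074 and -0.0688. The labels do not say whether the 2 arrays of a population are separate pools, so that p-values measure the spread between these samples, which may be technical. Whether the stage difference differed between SO2A and control populations was tested as an interaction over all 24 arrays. The procedure was tested on simulated data with planted changes and was slightly liberal when arrays of a population and stage shared part of their spread.

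A stage was dim where all 6 signals were under the 20th percentile of their own arrays, and its fold is then a bound, taken against the higher of that percentile and the signal on each array. The number of arrays limits the precision of every value, and binding of probes to near-identical copies of a gene (actins, trypsins, Jonah proteases and lysozymes among others) was not tested. Genes were named as the 15 greatest called differences in each direction without overlap between stages, with signals floored at 89.7 for the ranking, as markers of the stages, and from each gene list by largest change, brightest signal or opposite direction. Other genes in the text were chosen after their values were seen. The gene groups and lists were chosen with earlier results of these data known. Alternatives were the scaling, the floor, a filter on dim probe sets, the blocks, population means, a prior variance that follows the signal, all 24 arrays, each population left out, and the first or second arrays alone. Summaries used Python 3.11.15 with numpy 2.4.6 and pandas 2.3.3.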

Additional observations from a re-analysis of the deposited data

Results flagged for a closer look

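The stage difference of 14 named genes was not the same in SO2A and control populations by the test of the difference itself (limma, adjusted p under 0.05), on the log2 scale and SO2A minus control. It was positive for DptB (6.05), Mtk (5.16), Or67d (3.67), CG6933 (2.96), Cht10 (1.82), aub (0.92) and CycB (0.67), and negative for Lsp1beta (-2.15), tobi (-1.95), Mal-A1 (-1.81), CG6296 (-1.67), Jon25Bi (-0.94), AkhR (-0.94) and Lsd-1 (-0.79). In aub the log2 stage difference was 4.09 in SO2A arrays and 3.17 in control arrays (difference 0.92 ± 0.17, adjusted p = 0.0165), and in CycB it was 4.77 in SO2A arrays and 4.1 in control arrays (difference 0.67 ± 0.14, adjusted p = 0.028), so that both were higher in adults of either kind of population. CG6933 and Cht10 were lower in adults of either, with -7.90 in SO2A arrays and -10.86 in control arrays (difference 2.96 ± 0.62, adjusted p = 0.0287) for CG6933 and -2.49 in SO2A arrays and -4.31 in control arrays (difference 1.82 ± 0.38, adjusted p = 0.0287) for Cht10. Without control population 1 or 3, or without SO2A population 1, 13 of the 14 no longer passed.

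A single array stood far from the other 5 of its stage for 21 of the 394 sets of 6 arrays examined, and chance alone flags about 1 in 20. Among adults it was the highest array for AkhR (2026), CG14645 (102574), Cp7Fc (58731), IM33 (91952), e (520.0) and elav (1017), and the lowest for CG34324 (20754), FASN1 (35266), Sgs8 (10.6), kkv (33.4) and sa (54.6). Among larvae it was the highest array for Jon66Ci (161601) and Lcp65Af (1795), and the lowest for FASN2 (195), Mal-A5 (18101), Mal-A7 (131), PPO2 (10568), RpL22-like (806), TotA (17093), etaTry (12306) and retinin (28.2).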

How the results depend on the processing

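Direction was stable and the number of calls was not. The first arrays alone, with 1 array per population and stage, gave 2543 probe sets higher and 2011 lower in adults, and the second arrays alone gave 3132 and 2454, against 5259 and 4002 from all 12 arrays. Leaving out 1 control population gave 4475 to 4883 higher and 3301 to 3809 lower, with 1050 to 1088 over 4-fold higher and 1252 to 1430 over 4-fold lower. Without the replicate block of population, 5108 probe sets were higher and 3861 lower (1061 and 1331 over 4-fold), and the means of the 2 arrays gave 3995 and 3071. Calls over 4-fold stayed within 942 to 1174 higher and 1114 to 1430 lower under every alternative run. The share of calls that were higher was 56.8%, and 60.6% and 54.2% after centring each array on its median and after quantile normalization. The trend of the prior variance with the signal, chosen after seeing the data, gave 5364 higher and 4059 lower.

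The comparison of the stage difference between SO2A and control populations was less stable. Its 217 calls became 406 with the floor at the 20th percentile and 388 with arrays taken as independent. Leaving out populations, an alternative chosen after seeing the data, gave 19 to 101 calls without 1 control population and 79 to 171 without 1 SO2A population.

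Of the 184 genes named and called, the first arrays alone lost 27 calls, the second arrays alone 18, population means 13 and median centring 6. FASN1, which did not pass, turned to a log2 difference of 0.42 with quantile normalization (adjusted p = 0.023), and the cause was not tested. No other named gene changed sign with a call under any alternative run. A further 526 probe sets were dim in both stages, and no fold is given for such genes.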
